A study of Mus musculus with 42 samples.

Results

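The transforming growth factor beta (TGF-beta), bone morphogenetic protein (BMP) and myostatin pathway was followed through 44 genes, chosen by symbol from the 24466 gene symbols in the count files of the RNA-seq libraries. They comprised 14 ligands, 1 protease that cuts ligand antagonists and collagen precursors (Bmp1), 12 receptors and co-receptors, 7 secreted antagonists, and 10 intracellular members, namely 8 Smad proteins and the Smurf1 and Smurf2 ubiquitin ligases that mark pathway proteins for destruction. Every one of the 44 had a row in each file, and 42 passed the filter on low counts. Bmp7, with no count in any library, and Gdf5, with counts in 1 library, did not pass and were not tested.

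Ligands of this family bind a pair of type II and type I receptor kinases. TGF-beta, activin and myostatin signal mainly through Smad2 and Smad3, the BMPs through Smad1, Smad5 and Smad9, and both branches share Smad4, whereas Smad6 and Smad7 inhibit signaling. In skeletal muscle, myostatin limits muscle mass, TGF-beta restrains the differentiation of myoblasts, and BMP signaling favors the proliferation of muscle stem cells and their descendants.

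Mouse cells of 3 groups were compared by RNA-seq. The first, +Dox (3 libraries), were iPax7 cells, an embryonic stem cell line with a doxycycline (Dox) inducible Pax7 gene, from which PDGFalphaR+Flk-1- muscle precursors were sorted out of embryoid bodies and grown with 0.75 µg/ml Dox and FGF. The second, -Dox 3 d (2 libraries), were the same cells washed and kept for 3 d in medium lacking Dox. The paper does not state whether FGF was still added to it. The third were satellite cells, the stem cells of adult muscle (3 libraries), isolated from the muscle of Pax7-ZsGreen reporter mice and not cultured. The iPax7 groups therefore share 1 engineered line and serum, and the satellite cells differ from both in origin, culture and reporter allele, which cannot be told apart. The sources used here do not give the age of the mice or say whether libraries of a group came from separate cultures or animals. The p-values below therefore weigh differences against the spread between these libraries only.

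The libraries held 39010958 to 54674619 counts on genes. Reads without a unique position made up 7.11 to 7.6% of all reads in the iPax7 libraries and 23.58 to 30.68% in those of satellite cells. Pax7 fell from 11610 or more normalized counts in every +Dox library to between 221 and 270 without Dox, and the 8 differentiating muscle markers found in the files, such as Myog and Acta1, summed to 8351 to 9806 normalized counts with Dox and to 1916080 to 1963795 without it. Normalized counts are counts scaled by the TMM method to a common library size. The satellite cell libraries carried Pax7, Myf5, Myod1 and Calcr, and with them markers of other cells of muscle: 8 endothelial markers summed to 19502 to 27432 normalized counts, against 68.9 to 318 in the 5 iPax7 libraries, in which Cdh5 was at 0. The 8 fibroblast markers summed to 86115 to 155957 in satellite cells and 4601 to 13524 in iPax7 cells, the 8 smooth muscle and pericyte markers to 20758 to 40301 and 3487 to 54691, the 8 blood markers to 3020 to 10802 and 158 to 472, the 5 Schwann cell markers to 7350 to 10410 and 184 to 542, and the 4 tendon markers to 14688 to 20801 and 93.1 to 196. In such bulk libraries, fewer cells of a type and less RNA per cell cannot be told apart.

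The chromatin regions on which the results below turn were the promoter of Mstn, which encodes myostatin, and Pax7-bound sites with Smad9, Acvr2a or Nog as the gene of nearest start. The Mstn window ran from 250 bases before to 50 after the annotated start (NCBIM37, plus strand, chr1:53118257-53118556), and capitals mark the letters CANNTG, the E-box bound by muscle regulatory factors such as MyoD1 and myogenin. The other windows were the central 300 bases of Pax7 sites on the plus strand of NCBIM37, with capitals marking TAAT on either strand, the core letters of a homeodomain site. The first Smad9 site (chr3:54559383-54559682) covered the start of the gene, the second (chr3:54560181-54560480) lay 0.8 kb into it, the Acvr2a site (chr2:48472785-48473084) lay upstream at -196.7 kb from the start, and the Nog site (chr11:89154764-89155063) lay 9.0 kb downstream of the start and past the end of the gene.
Mstn promoter: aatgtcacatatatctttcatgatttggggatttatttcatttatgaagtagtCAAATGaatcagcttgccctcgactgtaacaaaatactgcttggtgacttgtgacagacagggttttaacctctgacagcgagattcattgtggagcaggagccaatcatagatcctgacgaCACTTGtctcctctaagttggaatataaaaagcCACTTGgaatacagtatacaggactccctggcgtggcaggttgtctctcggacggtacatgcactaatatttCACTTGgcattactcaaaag
Smad9 site at the start: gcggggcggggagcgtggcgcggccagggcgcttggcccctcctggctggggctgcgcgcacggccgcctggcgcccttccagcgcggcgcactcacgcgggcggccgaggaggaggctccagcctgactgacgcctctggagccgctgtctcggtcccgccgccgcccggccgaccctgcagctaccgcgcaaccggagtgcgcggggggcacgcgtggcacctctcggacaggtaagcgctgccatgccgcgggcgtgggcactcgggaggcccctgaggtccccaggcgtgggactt
Smad9 second site: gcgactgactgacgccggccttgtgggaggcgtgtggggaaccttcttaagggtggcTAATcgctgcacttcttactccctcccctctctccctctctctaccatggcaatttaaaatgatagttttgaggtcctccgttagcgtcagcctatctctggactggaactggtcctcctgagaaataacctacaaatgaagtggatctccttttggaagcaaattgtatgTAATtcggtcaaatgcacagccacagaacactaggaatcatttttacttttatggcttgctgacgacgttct
Acvr2a site: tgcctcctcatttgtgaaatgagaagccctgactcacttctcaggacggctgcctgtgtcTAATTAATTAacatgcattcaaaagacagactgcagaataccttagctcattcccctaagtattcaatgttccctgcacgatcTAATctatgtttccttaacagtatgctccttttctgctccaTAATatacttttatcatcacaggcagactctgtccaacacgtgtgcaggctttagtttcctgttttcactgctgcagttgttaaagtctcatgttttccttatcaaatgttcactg
Nog site: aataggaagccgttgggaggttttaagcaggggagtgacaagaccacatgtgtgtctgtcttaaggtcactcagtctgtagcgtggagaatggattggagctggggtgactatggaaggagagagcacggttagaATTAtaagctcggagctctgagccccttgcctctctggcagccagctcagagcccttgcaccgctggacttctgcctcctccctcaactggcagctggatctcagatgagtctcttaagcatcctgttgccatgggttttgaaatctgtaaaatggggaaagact
The Mstn window held 4 E-boxes, a number reached or exceeded in 5.6% of 20523 promoter windows of the same length, while 69.3% held at least 1. The Acvr2a site printed here was 1 of 3 nearest to that gene. It was the only one of these to hold the paired-homeodomain palindrome, TAAT and ATTA separated by 2 bases. The palindrome was found in 1.0% of the 2455 Pax7 site windows and in 1 of the 17 nearest to a member. TAAT itself was in 82.8% of all windows and in 14 of the 17, but not in the window at the Smad9 start, and the paired domain letters GTCACGC, in 3.2% of all windows, were in none of the 17. These are matches of letters on either strand, with GTCACGC and TAAT counted separately and every palindrome also holding TAAT.

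Removal of Dox was examined first, since it asks how the pathway changes as Pax7 is lost and the cells begin to differentiate. Of the 42 members tested, 4 rose (Tgfb2, Tgfb3, Acvr2a and Smad3) and 1 fell (Bmp4), at an adjusted p under 0.05 in the quasi-likelihood test of edgeR, adjusted by Benjamini-Hochberg over 14836 genes. Over all genes tested, 4.66% were called higher and 3.04% lower, so members were called higher somewhat more often than genes at large and lower about as often, on 4 genes and 1 gene. The median log2 difference of the members was -0.09, and that of all genes was -0.00492. Among the ligands 2 rose and 1 fell, among the receptors 1 rose, among the Smads 1 rose, and no antagonist and not the protease passed the test.

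**Figure D1:**
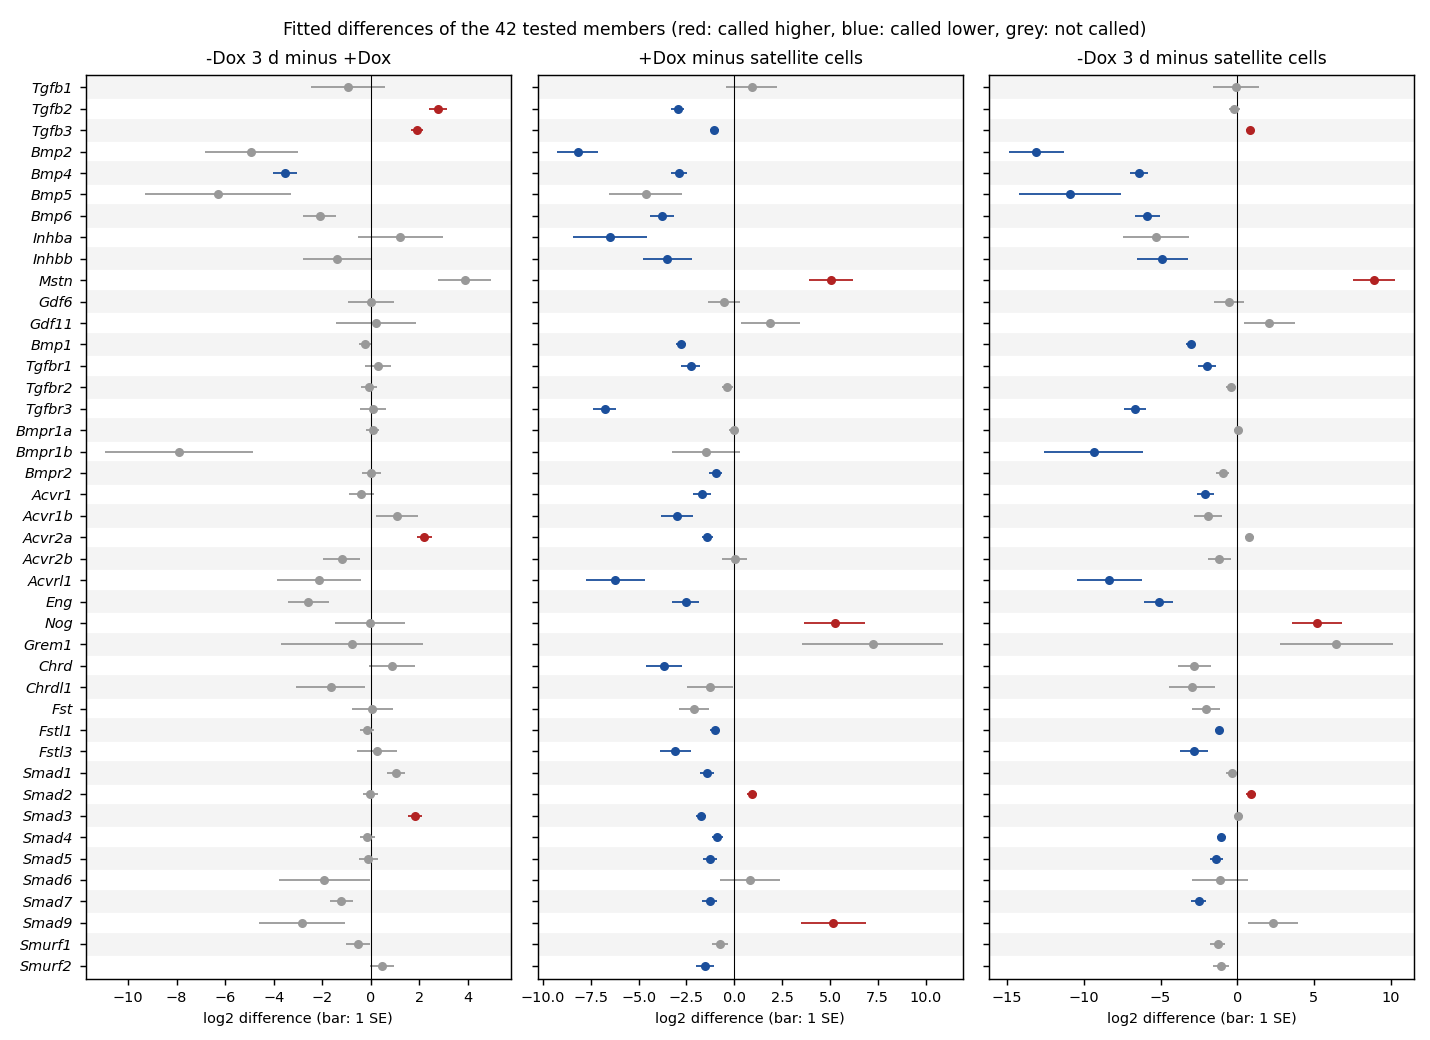
Fitted log2 differences of the 42 tested members in the 3 comparisons, with bars of 1 SE (x axes differ between panels). Red points were called higher and blue points lower at an adjusted p under 0.05. Without Dox 4 members were called higher and 1 lower, and against satellite cells most called members lay to the left of 0.

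Tgfb2, which encodes 1 of the TGF-beta ligands, stood at 576, 450 and 348 normalized counts in the +Dox libraries and at 2752 and 3474 without Dox. It rose 6.79-fold (log2 difference 2.76 ± 0.358 SE, edgeR adjusted p = 0.00181), and no -Dox library came near a +Dox library. Satellite cells held 4637, 2529 and 3444 normalized counts, a range that enclosed both -Dox values (log2 difference of -Dox from satellite cells -0.18 ± 0.356 SE, adjusted p = 0.711).

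Tgfb3, a second TGF-beta ligand, stood at 3293, 2721 and 2394 normalized counts with Dox and at 11057 and 9751 without it, a 3.71-fold rise (log2 difference 1.89 ± 0.248 SE, edgeR adjusted p = 0.00192). Its satellite cell values of 6128, 5942 and 5328 lay between the iPax7 groups with no overlap. Tgfb1, the third ligand of this kind, was near the floor of detection in every group, at 2.76 to 28.9 normalized counts.

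Mstn stood at 2228, 2022 and 1835 normalized counts in the +Dox libraries, at 31468 and 27760 in the -Dox libraries, and at 0, 13.4 and 169 in satellite cells. The groups did not overlap, and the log2 difference of -Dox from +Dox was 3.87 ± 1.1 SE, 14.6-fold, with an edgeR adjusted p of 0.0657 that missed the threshold. With only the +Dox and -Dox libraries the same difference had an adjusted p of 5.73e-05. The adjusted p was 0.0141, 0.0564 and 0.00477 without satellite cell replicate 1, 2 or 3, 0.0411 with no filter on low counts, and 0.152 to 0.223 without any single iPax7 library. Per kilobase of annotated exon, Mstn had the highest level of the 44 members in -Dox cells, at 11042 normalized counts per kb, followed by the antagonist Fstl1 at 3115 and Tgfb3 at 3074.

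Of the BMP ligands, Bmp4 alone passed the test. It stood at 925, 798 and 1186 normalized counts with Dox and at 43.2 and 125 without it, and fell 11.5-fold (log2 difference -3.53 ± 0.495 SE, edgeR adjusted p = 0.00258). Bmp6, at 121, 225 and 444 normalized counts with Dox and 48.7 and 72.9 without, also had groups that did not overlap, but its log2 difference of -2.11 ± 0.678 SE missed the threshold (edgeR adjusted p = 0.0976, and 0.0162 by DESeq2). Bmp2 and Bmp5 had at most 8.15 and 28.1 normalized counts in any +Dox library and 0 in both -Dox libraries. Of the activin subunits, Inhba and Inhbb were at 74.4 normalized counts or less in every iPax7 library, and Gdf6 (44.6 to 160) and Gdf11 (2.76 to 43.4) were low with overlapping groups. Bmp6, Bmp2, Bmp5 and the other ligands of this paragraph after Bmp4 were picked for mention after their values were seen.

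**Figure D2:**
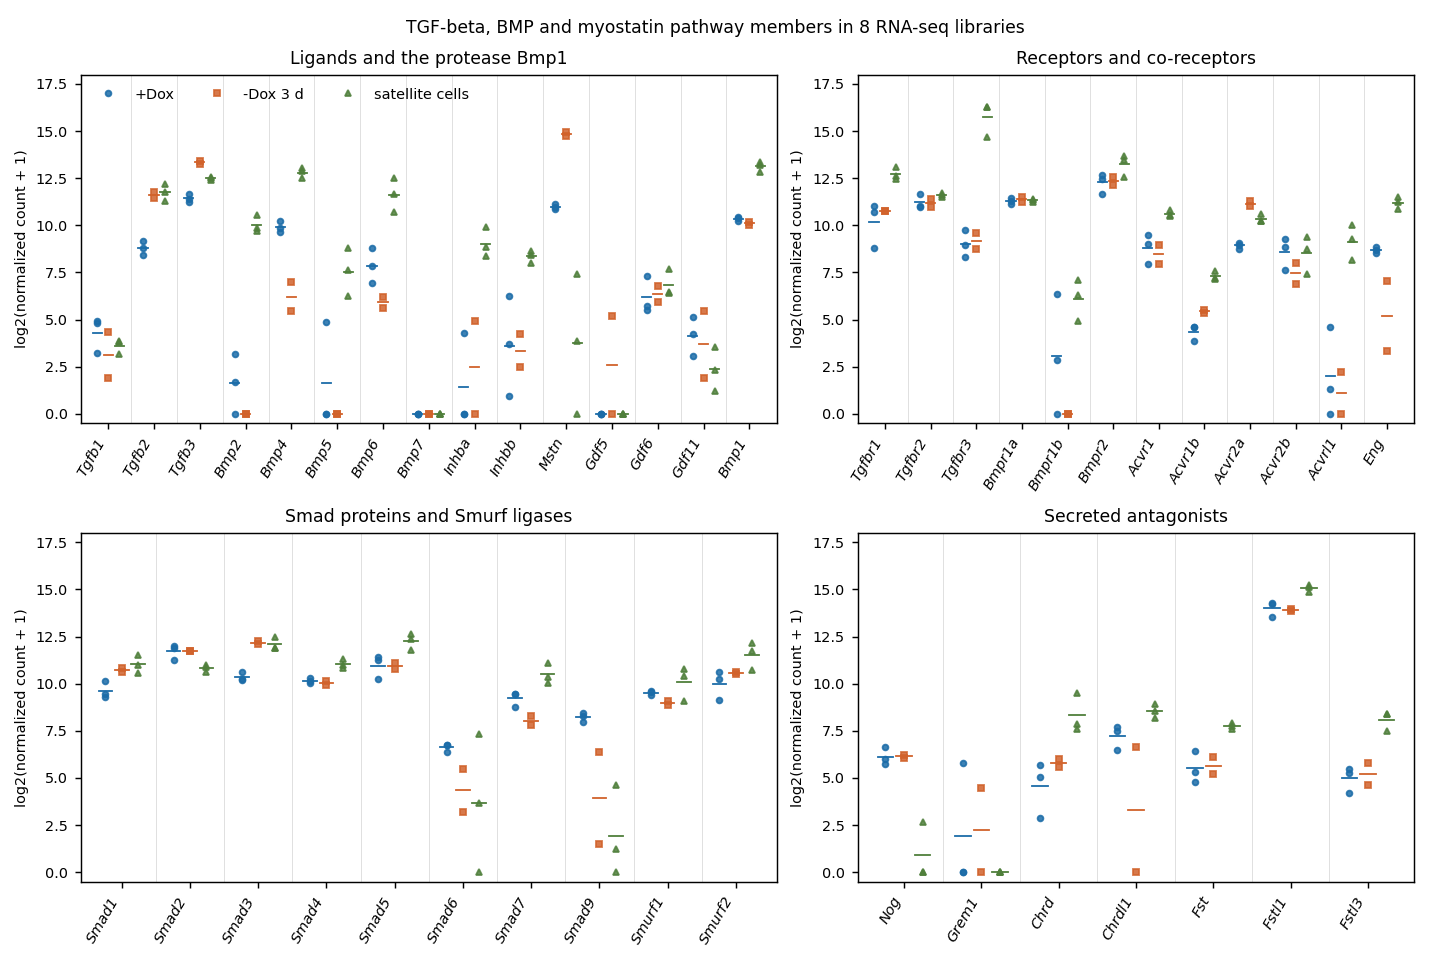
Normalized counts of the 44 members in each of the 8 libraries on a log2(count + 1) scale, by class. Points are libraries and short lines their means on this scale. Mstn, Tgfb2, Tgfb3, Acvr2a and Smad3 sit higher without Dox, Bmp4 sits lower, and most other members are higher in satellite cells than in either iPax7 group.

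Among the receptors, Acvr2a, a type II receptor that binds activin and myostatin, was the only member to pass the test. It stood at 542, 498 and 432 normalized counts with Dox and at 2464 and 2052 without it, a 4.6-fold rise (log2 difference 2.2 ± 0.314 SE, edgeR adjusted p = 0.00284). All 3 satellite libraries, at 1186, 1202 and 1536, lay between the iPax7 groups. The related receptor gene Acvr2b, at 627, 464 and 200 with Dox and 119 and 256 without, had overlapping groups and a log2 difference of -1.2 ± 0.754 SE (adjusted p = 0.416).

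Eng, which encodes endoglin, a co-receptor for TGF-beta and BMP ligands, stood at 459, 410 and 369 normalized counts with Dox and at 130 and 9.23 without it. The groups did not overlap, but the -Dox libraries lay far apart. The log2 difference of -2.57 ± 0.836 SE gave an edgeR adjusted p of 0.101 (0.0126 by DESeq2). Eng passed the threshold without -Dox replicate 1, in a fit that rested on the lone -Dox library at 9.23. Bmpr1b, a type I BMP receptor, was at 80.4, 0 and 6.37 normalized counts with Dox and at 0 in both -Dox libraries (adjusted p = 0.176, and 0.0296 by DESeq2), and most of its +Dox counts came from 1 library. Tgfbr1, Tgfbr2, Tgfbr3, Bmpr1a and Bmpr2, with Acvr1 a further type I receptor, had overlapping groups. The log2 differences of the first 5 lay between -0.07 and 0.3 with standard errors of 0.267 to 0.534, and that of Acvr1 was -0.39 ± 0.503 SE.

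Of the Smads, Smad3, a transducer of TGF-beta, activin and myostatin signals, rose. It stood at 1553, 1220 and 1186 normalized counts with Dox and at 4867 and 4379 without it, a 3.5-fold rise (log2 difference 1.81 ± 0.291 SE, edgeR adjusted p = 0.00527). Without -Dox replicate 1 the adjusted p was 0.0543. Smad2, its partner in the same branch, stood at 3498 ± 888 with Dox (SD, n = 3) and 3451 ± 21.8 without it (SD, n = 2), with a log2 difference of -0.02 ± 0.304 SE. On the level per kilobase of exon, Smad2 exceeded Smad3 in +Dox cells, at 986 against 238 normalized counts per kb, and the means were 972 and 834 in -Dox cells.

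In the BMP branch, Smad9 stood at 310, 253 and 343 normalized counts with Dox and at 81.8 and 1.85 without it. All -Dox values lay below all +Dox values, but the fitted log2 difference of -2.85 ± 1.77 SE had an edgeR adjusted p of 0.409. Smad6, an inhibitor of BMP signaling, stood at 106, 83.7 and 108 with Dox and 8.27 and 44.3 without it, again without overlap (log2 difference -1.91 ± 1.87 SE, adjusted p = 0.648). Smad1 was higher without Dox in every library, at 1579 and 1802 against 713, 628 and 1121, and the inhibitor Smad7 was lower, at 314 and 220 against 711, 438 and 709, with adjusted p of 0.146 and 0.163. Smad4, Smad5 and Smurf2 had overlapping groups, and Smurf1 was at 683 to 779 with Dox and 464 to 546 without (adjusted p = 0.612).

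None of the 7 antagonists passed the test in this comparison, and 0 of them had an unadjusted p under 0.05 in the edgeR fit. DESeq2 called none of them either. Fstl1, a secreted follistatin-like protein, was by far the most abundant, at 20041, 19135 and 12096 normalized counts with Dox and 14878 and 15735 without it (log2 difference -0.16 ± 0.277 SE). Chrdl1 and Chrd, which encode chordin-like 1 and chordin, had the largest fitted differences of the class: Chrdl1 stood at 204, 87.4 and 181 with Dox and 99.3 and 0 without (log2 difference -1.66 ± 1.42 SE), and Chrd at 51.1, 32.6 and 6.37 with Dox and 47.8 and 62.8 without (0.88 ± 0.955 SE). Chrdl1 passed the threshold without -Dox replicate 1, the library with 99.3, in a fit that rested on the lone -Dox library at 0. Fst, which encodes follistatin, the secreted inhibitor of activin and myostatin, was at 26.7 to 83.8 normalized counts in all 5 iPax7 libraries. The protease Bmp1 was at 1337, 1386 and 1217 with Dox and 1053 and 1176 without it, groups that did not overlap with a log2 difference of -0.24 ± 0.264 SE (adjusted p = 0.7).

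A wider list of 87 other genes of the pathway was read in the same fit, of which 69 were tested. Without Dox 5 were called higher and 7 lower, against 4.66% and 3.04% of all genes. The members of the list that fell included all 4 Id genes, which encode inhibitors of differentiation and are known targets of BMP signaling. Id1 stood at 5646, 5898 and 11593 normalized counts with Dox and at 1913 and 2029 without it (log2 difference -1.97 ± 0.368 SE, edgeR adjusted p = 0.011). Id3, at 54641, 60857 and 98360 with Dox, stood at 13583 and 15708 without it (-2.28 ± 0.505 SE, adjusted p = 0.0249), and Id2 fell by 2.29 on the log2 scale (adjusted p = 0.0121). Id4, at 101, 151 and 202 with Dox, was at 0 and 0.923 without it (adjusted p = 0.00682). No +Dox and -Dox values overlapped for any of these genes. These calls rested on both -Dox libraries. Without -Dox replicate 1 the adjusted p was 0.121 for Id1, 0.123 for Id2, 0.192 for Id3 and 0.0565 for Id4, and without -Dox replicate 2 it was 0.112, 0.103, 0.151 and 0.0329. The call of Id3 was also lost without +Dox replicate 2 (0.0534) or 3 (0.059).

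Of the other pathway genes that fell, Nedd4l, a ubiquitin ligase known to act on Smad proteins, went from a mean of 2065 to 426 normalized counts (adjusted p = 0.00358). Gdf10, a BMP-related ligand, stood at 393, 431 and 519 normalized counts with Dox and 0 in both -Dox libraries, which puts it at least 162-fold lower when 3 counts per library are taken as the floor. Thbs1, whose product can activate latent TGF-beta, fell by 1.77 on the log2 scale (adjusted p = 0.0202). Among those that rose, Itgb6, a subunit of an integrin that activates latent TGF-beta, went from 4.51, 57 and 37.3 to 3492 and 3547 normalized counts (adjusted p = 0.0137). Hfe2, the hemojuvelin co-receptor of BMP ligands, rose 36.3-fold (adjusted p = 0.00525), Tgfbi, a gene named for its induction by TGF-beta, rose 14.6-fold (adjusted p = 0.000137), and Dcn, whose product decorin binds TGF-beta and which is also on the fibroblast marker list, rose 17.9-fold (adjusted p = 0.00216). Cdkn1a, a cell cycle inhibitor also regulated by the myogenic program, rose 3.9-fold (adjusted p = 0.00178). The median log2 difference of the 69 was -0.18. The calls for lower genes numbered 1 without -Dox replicate 1 and 2 without -Dox replicate 2, against 7 with all libraries. Leaving out either of these put the adjusted p of Gdf10 (0.099 and 0.0979), Thbs1 (0.164 and 0.163) and Itgb6 (0.0503 and 0.0508) over 0.05, and Nedd4l was at 0.0601 without -Dox replicate 2. Thbs1 was also at 0.0612 and 0.0692 without +Dox replicate 1 or 2, and Itgb6 at 0.0545 without +Dox replicate 3.

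**Figure D3:**
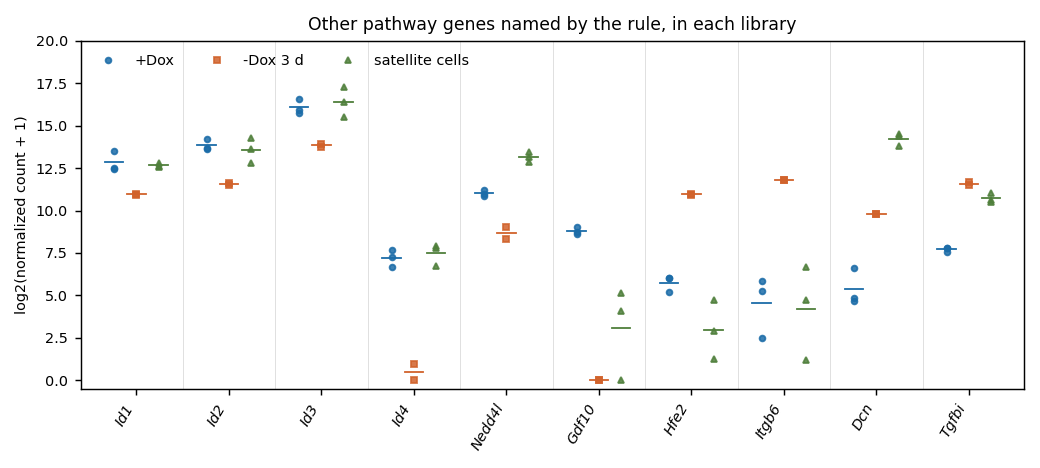
Normalized counts, as log2(count + 1), of 10 other pathway genes in each library, with short lines for the means on this scale. The 4 Id genes, Nedd4l and Gdf10 are lower in both -Dox libraries than in any +Dox library, and Hfe2, Itgb6, Dcn and Tgfbi are higher.

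The iPax7 precursors were next compared with satellite cells, to ask how near the cultured precursors come to muscle stem cells taken from the animal. Of 42 members, +Dox cells were called lower than satellite cells at 25 and higher at 4, against 25.1% and 19.8% of all 14836 genes. The median log2 difference of the members was -1.41 and that of all genes was -0.174. By class, +Dox cells were lower at 7 of 12 tested ligands, the protease, 8 of 12 receptors, 3 of 7 antagonists and 6 of 10 Smads and Smurfs. The members called lower exceeded the background share and those called higher fell short of it. Genes low in every iPax7 library could enter the test through satellite cells alone, which leaves only a lower call open to them. Among the members, Bmp2 and Acvrl1, with at most 11 and 32 raw counts in any iPax7 library, were called in this way. The share of such genes among all genes was not determined, and the excess itself was not tested. Within the marker lists, Scx (tendon) averaged 99.6 normalized counts in +Dox cells against 17.6 in satellite cells, and Ly6a (fibroblast) 5063 against 2623, neither called. Cd34, on the fibroblast list, is also a surface marker that the paper names as possibly relevant for satellite cells. The marker sums above for endothelial, fibroblast, pericyte, blood, Schwann and tendon cells were lower in every +Dox library than in every satellite library. So were the 8 muscle stem and precursor markers, which summed to 147022 to 217740 normalized counts in +Dox cells and 249955 to 281320 in satellite cells. Of these 8, 6 were called lower in +Dox cells and 1, Pax7, higher. The part of any of these markers in the member differences was not tested. Of the 69 other pathway genes tested, 29 were lower and 3 higher in +Dox cells. The count of members called lower was 19 to 24 when single libraries were left out, and that of members called higher was 1 to 4, with 2 without +Dox replicate 1 and 1 without +Dox replicate 2.

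Tgfbr3, which encodes betaglycan, a TGF-beta co-receptor, stood at 503, 858 and 320 normalized counts in +Dox cells and at 78304, 78033 and 26828 in satellite cells, 109-fold apart (log2 difference -6.77 ± 0.612 SE, edgeR adjusted p = 5.2e-05). Per kilobase of exon it was the highest of the 44 members in satellite cells, at 9329 normalized counts per kb, ahead of Fstl1 at 7116 and Bmp4 at 3243. Acvrl1, a type I receptor best known from endothelium, stood at 608, 1028 and 286 in satellite cells and at most 23.7 in any iPax7 library (log2 difference of +Dox -6.22 ± 1.54 SE, adjusted p = 0.00992). Eng, also best known from endothelium, stood at 2849, 2448 and 1893 in satellite cells, above all +Dox values (log2 difference -2.54 ± 0.704 SE, adjusted p = 0.0163, and 0.0524 or 0.0558 without +Dox replicate 2 or 3).

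Of the BMP ligands, Bmp2, Bmp4 and Bmp6 were lower in both iPax7 groups than in satellite cells. Bmp2 stood at 836, 917 and 1473 normalized counts in satellite cells against 2.25, 8.15 and 0 in +Dox cells (log2 difference -8.19 ± 1.08 SE, edgeR adjusted p = 0.000549), and -Dox cells, with 0 counts in both libraries, were at least 389-fold lower. Bmp4, at 8292, 7571 and 5774 in satellite cells, was 7.44-fold lower in +Dox cells (adjusted p = 0.000469) and 85.8-fold lower in -Dox cells (adjusted p = 7.64e-05). Bmp6 was 13.6-fold and 58.9-fold lower. The activin subunit Inhba, at 458, 950 and 328 in satellite cells, stood at 0, 18.5 and 0 in +Dox cells (log2 difference -6.5 ± 1.92 SE, adjusted p = 0.0215), and its adjusted p was 0.0507 to 0.0583 without +Dox replicate 1, +Dox replicate 3 or satellite cell replicate 2. Bmp5, at 438, 196 and 73.9 in satellite cells, was at 0 in both -Dox libraries, at least 85.4-fold lower (adjusted p = 0.0308, and 0.122, 0.121 and 0.063 without -Dox replicate 1, -Dox replicate 2 or satellite cell replicate 1). Its difference between +Dox and satellite cells, at 0, 28.1 and 0 normalized counts in +Dox cells, was not called (adjusted p = 0.0792), nor was that of Gdf6 in either comparison.

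The 4 members called higher in +Dox cells were Mstn, Smad9, Nog and Smad2. Mstn was 33.3-fold higher (log2 difference 5.06 ± 1.14 SE, edgeR adjusted p = 0.00616), and this call was kept in every fit without 1 library, while DESeq2 gave no adjusted p for it. Smad9 stood at 253 to 343 normalized counts with Dox and at 23.7, 0 and 1.32 in satellite cells (log2 difference 5.16 ± 1.7 SE, adjusted p = 0.0332), and its adjusted p was 0.0573 to 0.086 without any +Dox library or without satellite cell replicate 2 or 3. Nog, which encodes the BMP antagonist noggin, stood at 63.8, 98.5 and 52.8 in +Dox cells and 0, 5.36 and 0 in satellite cells (adjusted p = 0.0249, and 0.0593 without +Dox replicate 2). Smad2 was 1.9-fold higher (log2 difference 0.92 ± 0.274 SE, adjusted p = 0.0219, and 0.0577 or 0.0798 without +Dox replicate 1 or 2).

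After 3 d without Dox, 17 members were called lower and 4 higher than in satellite cells, against 20.9% and 18.1% of all genes, with a median log2 difference of -1.24 for the members and -0.231 for all genes. The summed markers of differentiating muscle were higher in these cells than in satellite cells. Scx of the tendon list also averaged more, at 169 against 17.6 normalized counts, without a call. The sums for endothelial, fibroblast, blood, Schwann and tendon markers were lower. The muscle stem and precursor markers were lower too, at a sum of 23202 to 23965 normalized counts in -Dox cells against 249955 to 281320. In the smooth muscle and pericyte list Acta2 averaged 53915 normalized counts in -Dox cells against 9833, while the means of the other 7 markers were lower, such as 42.8 against 12814 for Rgs5 and 289 against 2211 for Pdgfrb. The part of these cell types in the differences was not tested. Bmp2, Bmp5, Bmpr1b and Acvrl1, all called lower here, passed the filter on low counts only through the satellite libraries. Of the 69 other pathway genes, 28 were lower and 5 higher. The comparison shares its satellite libraries with the one before, so the counts are set side by side only. Mstn was 486-fold higher in -Dox cells (log2 difference 8.93 ± 1.36 SE, edgeR adjusted p = 0.00095), Tgfb3 1.79-fold higher (adjusted p = 0.0238), Smad2 1.87-fold higher (adjusted p = 0.0385) and Nog, at 74.4 and 66.5 normalized counts, 37.1-fold higher (adjusted p = 0.0324). Of these, only the Mstn call was kept in each fit without 1 library. The members called lower numbered 8 without -Dox replicate 1 and 9 without -Dox replicate 2. Smad3 and Tgfb2 differed from satellite cells with Dox and had log2 differences of 0.06 ± 0.294 and -0.18 ± 0.356 SE without it. Bmpr1a, a type I BMP receptor, was at 2229 to 2900 normalized counts in all 8 libraries, with log2 differences of -0.03 ± 0.239 and 0.06 ± 0.267 SE from satellite cells.

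Promoter chromatin was read as the presence of a listed region within 1 kb of any annotated start of a gene, without a test, since each list came from pooled libraries. ATAC-seq peaks, which mark accessible DNA, were present at 38 of the 44 members with Dox, at 38 after 12 h and 24 h without it, at 39 after 3 d, and at 39 in satellite cells, against 65.5%, 63.6%, 66.8%, 68.1% and 60.7% of 20523 genes. All 10 Smads and Smurfs had a peak in every one of these lists. Mstn had no peak with Dox or at 12 h or 24 h, and had 1 after 3 d without Dox (2.77-fold enrichment, -log10 q of 5.1) and 1 in satellite cells (3.52-fold, -log10 q of 4.4). Both were weak beside the peak of Smad9 at 3 d (17.76-fold, -log10 q of 167.8), and neither reached a -log10 q of 10. The 3 d list was also the longest, at 172103 peaks against 135564 with Dox. In myotubes made from iPax7 cells in 2% horse serum, a list of 99784 peaks, Mstn had no peak. It also had none in C2C12, a separate cell line, as myoblasts in 10% fetal bovine serum or as myotubes in 2% horse serum. These lists therefore differ from the others in medium, and those of C2C12 in cell line as well. Bmp4 had no peak in any iPax7 list and had 1 in satellite cells (6.44-fold, -log10 q of 16), the group in which its RNA was highest.

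H3K27Ac, a mark of active promoters and enhancers, was present at 32 members with Dox and 25 without it, against 50.2% and 47.1% of genes. At 7 members a region was listed with Dox and not without it (Bmp4, Bmp6, Tgfbr3, Acvr1b, Acvr2b, Acvrl1 and Smad9), against 5.29% of genes. The reverse was listed at 0 members, against 2.21%. Members had the mark with Dox more often than genes at large, so more of them could lose it. Of promoters with the mark, the loss was listed at 7 of 32 members and 1085 of 10303 genes. Of these 7, Bmp4 was also called lower in RNA, Bmp6 and Smad9 had lower RNA in every -Dox library without passing the test, and Acvr1b stood at 39.5 and 45.2 normalized counts without Dox against 13.7 to 23.3 with it. The other 3 had overlapping RNA values, with log2 differences of 0.09 for Tgfbr3, -1.2 for Acvr2b and -2.13 for Acvrl1, none of them called. The list without Dox was shorter, with 90168 regions against 119528, and its part in the difference was not tested. Mstn, Tgfb2, Tgfb3, Acvr2a and Smad3 had the mark in both conditions.

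H3K27me3, the mark set by Polycomb complexes at silent developmental genes, was present at 19 members with Dox and 16 without it, against 23.1% and 21.1% of genes. The 3 members with a region with Dox and not without it were Bmp1, Chrdl1 and Fstl3, against 4.47% of all genes, and 0 had the reverse, against 2.47%. All 19 also carried H3K4me3, the mark of promoters, which with Dox was listed at 42 of the 44 members and 62.7% of genes. Both marks together were found at 13.8% of genes with Dox. With H3K4me3 at nearly every member, the double mark adds little to H3K27me3 alone. The 19 were 8 ligands (Bmp2, Bmp4, Bmp6, Bmp7, Inhba, Inhbb, Gdf6 and Gdf11), the protease, 4 receptors (Tgfbr3, Bmpr1b, Acvr2b and Acvrl1) and 6 of the 7 antagonists, all except Nog. Fstl1 was listed with H3K27me3 and H3K27Ac in both conditions while its RNA was among the most abundant of the members. Of the members that lost H3K27Ac, Bmp4, Bmp6, Tgfbr3, Acvr2b and Acvrl1 had H3K27me3 in both conditions, and Acvr1b and Smad9 in neither. None of the 10 Smads and Smurfs had H3K27me3 in either condition, nor did any TGF-beta ligand or Mstn. The GC content of the promoter windows of the 19 was 70% in the median, against 68.0% for the other 25 members and 55.7% for all genes.

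**Figure D4:**
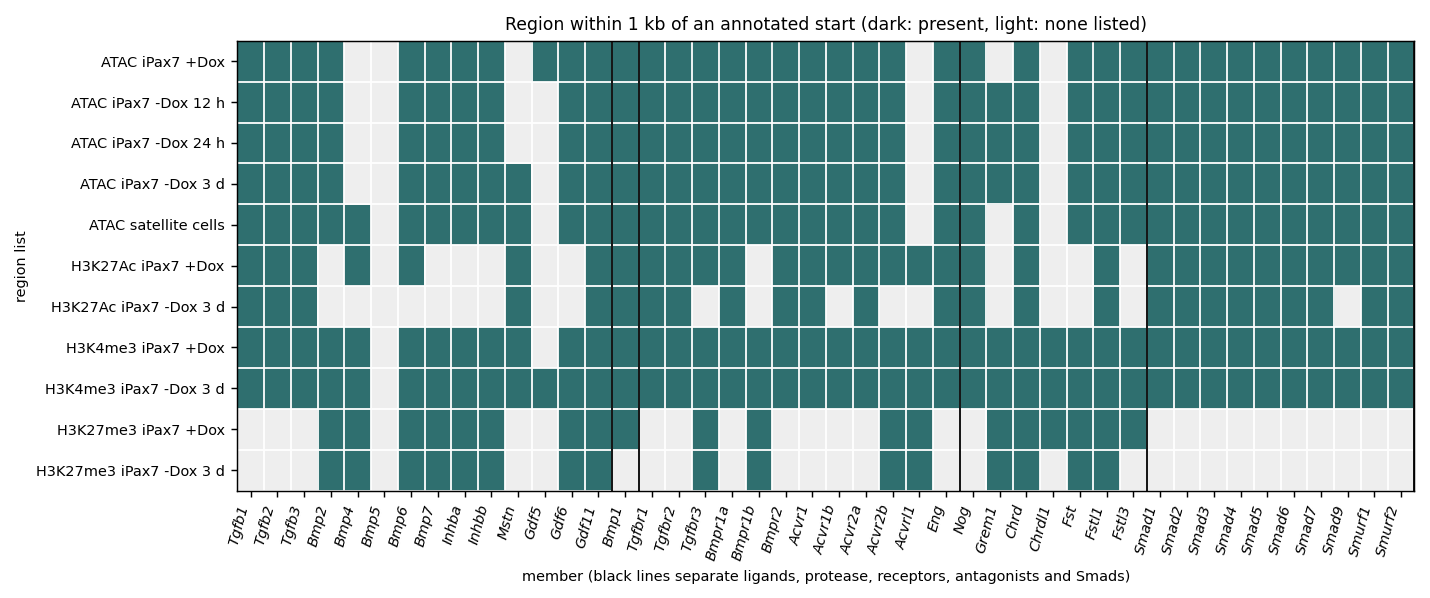
Presence (dark) or absence (light) of a listed region within 1 kb of an annotated start for each of the 44 members. H3K27me3 is listed at BMP and activin ligands and at most antagonists and is absent from all Smads, and H3K27Ac is lost without Dox at 7 members.

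Pax7-bound sites, 2455 in all, had been kept by the authors where they recurred with Dox and were absent without it. Of these, 17 had a member as the gene with the nearest start, at 11 members, and 8.8% of genes were nearest to at least 1 site. Within 100 kb of a start, 10 members had a site, against 18.1% of genes, and within 50 kb 4 had 1, against 10.3%. The sites lay near receptors (Acvr2a with 3, Tgfbr2, Tgfbr3), Smads (Smad6 with 3, Smad2 and Smad9 with 2 each, Smad3, Smad7), ligands (Bmp2, Bmp5) and Nog. Most were far off, the farthest at -527.4 kb from the start of Tgfbr2. The sites at Smad9 were the only ones within 1 kb of a member's start.

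Of the 17 sites, 16 overlapped an ATAC peak with Dox, 15 after 12 h without it, 13 after 24 h and 14 after 3 d, against 95.4%, 63.2%, 63.4% and 68.0% of all sites. H3K27Ac regions overlapped 15 with Dox and 9 without it, against 73.2% and 37.9%. At both Smad9 sites, printed above, H3K27Ac was listed with Dox and not without it, while an ATAC peak was listed in all 4 iPax7 conditions. The Nog site overlapped an ATAC peak with Dox and at 12 h and none at 24 h or 3 d, and lost H3K27Ac, while Nog RNA was at 52.8 to 98.5 normalized counts with Dox and 66.5 and 74.4 without it. The 3 sites upstream of Acvr2a, whose RNA rose, differed. The one at -245.2 kb kept its ATAC peak and H3K27Ac, and the one with the palindrome kept its ATAC peak and lost H3K27Ac. The one at -193.5 kb had no ATAC peak at 12 h, 24 h or 3 d and lost H3K27Ac as well. In the list of iPax7 myotubes it overlapped an ATAC peak again. The site inside Smad3, 11.9 kb from its start, kept both.

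**Figure D5:**
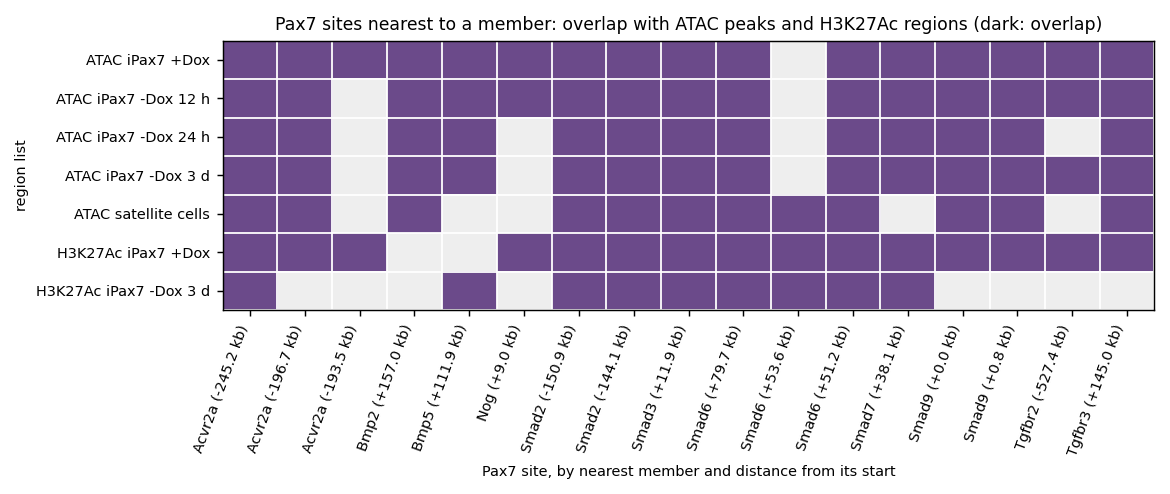
Overlap (dark) of the 17 Pax7 sites nearest to a member with ATAC peaks and H3K27Ac regions, labelled by member and distance in kb from its start. The Nog site loses its ATAC peak by 24 h without Dox, and both Smad9 sites keep it and lose H3K27Ac.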

How the data were processed

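RNA-seq counts per gene symbol had been made by the authors and were deposited as 1 file of raw counts per library for +Dox (3), -Dox 3 d (2) and satellite cells (3). The submitters' processing notes name Bowtie2 2.2.6, TopHat2 2.0, HTSeq 0.6, Trimmomatic 0.32, MACS2 2.0.10, Picard and edgeR, and mm9. Which of them made the counts, and whether strand was used, is not given in the sources used here. The 5 summary rows at the end of each file were left out of totals and tests (reads without a unique position 7.11 to 30.68% of reads, ambiguous reads 1.51 to 2.32%). ATAC-seq peaks, called by the authors with MACS2 on merged replicates after duplicate removal, were deposited with fold enrichment (a ratio), -log10 p and -log10 q values. Histone and Pax7 ChIP-seq regions, called by the authors with Qeseq on mm9 (histone replicates merged), were deposited as coordinates with no score.

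Counts were normalized by TMM and fitted over all 8 libraries with edgeR 4.0.16 (filterByExpr, 14836 of 24466 symbols, quasi-likelihood F-test, Benjamini-Hochberg adjustment, threshold 0.05) in R 4.3.3, with limma 3.58.1. The difference of 2 groups is given as log2 with its standard error, back-calculated from the F statistic. A group at 0 was set to 3 counts per library for a lower bound. The standard errors rest on the spread between libraries and are not ranges that hold the libraries. Depth (39010958 to 54674619 counts) limits the values near 0. DESeq2 1.42.0, RLE scaling, no filter, fits of 2 groups alone, a 2-fold rule, a replicate block and leaving out each library were the alternatives. The fitting code was tested on simulated data. Promoters were windows of 1000 bp either side of annotated starts of 20523 genes (GENCODE M1, NCBIM37), and promoter and site sequences were read from NCBIM37. Python 3.11.15 with pandas 2.3.3, numpy 2.4.6 and matplotlib 3.10.9 did the rest.

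The members and lists were chosen with earlier results of these data known. On Dox removal, values in every library are given for the members called and, in a class with fewer than 2 called, for the 2 members with the largest fitted difference. Against satellite cells the 3 called members with the largest difference each way were named, if libraries did not overlap and the higher group averaged 100 normalized counts or more, and from the other pathway genes the 10 called on Dox removal with the largest difference under the same minimum. Further genes described were picked for their role or after their values were seen. Replicate numbers stand in file names only.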

Additional observations from a re-analysis of the deposited data

How the results depend on the processing

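Of 768 alternatives for 55 called single-gene results, 653 kept their direction and side of the threshold, 115 lost the threshold and 0 reversed. Tgfb2, Tgfb3, Bmp4 and Acvr2a stayed called on Dox removal in every alternative. Members called lower without Dox numbered 4 by DESeq2 and 5 with the replicate block, against 1. Over all genes, lower calls also rose, to 1102 of 14133 by DESeq2 and 1994 of 13259 with the block, against 451 of 14836. The block was fitted to the libraries of the 2 compared groups only. Members called higher in -Dox than in satellite cells numbered 2 with the 2-fold rule and 1 with the block, against 4. Over all genes these higher calls numbered 2548 of 14836 and 2247 of 14135, against 2681 of 14836. Other pathway genes called lower without Dox numbered 11 by DESeq2 and 13 with the block, against 7, beside the same rise over all genes. Members with a Pax7 site within 50 kb numbered 4, against 10 within 100 kb. Leaving out single libraries gave, for members higher and lower, 3 to 5 and 1 to 3 (-Dox against +Dox), 1 to 4 and 19 to 24 (+Dox against satellite cells) and 1 to 4 and 8 to 17 (-Dox against satellite cells), and for the other pathway genes 4 to 6 and 1 to 9, 2 to 6 and 22 to 28, and 4 to 8 and 18 to 31. Where a -Dox library was left out, the lone one was assumed to vary like the other groups. Deviations of same-numbered libraries from their group means, over all tested genes, had correlations of -0.0398 to 0.0272. With 2 -Dox libraries the deviations mirror each other, so these values cannot decide whether equal numbers mark paired libraries. The block is given as a count alone. Stricter score thresholds for the histone and Pax7 regions were planned and not run, since those lists hold no score. The cause of the differences between settings was not tested.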
